A study of Mus musculus with 73 samples.

Results

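The 7 genes described here encode the machinery of antigen presentation by MHC class II: *H2-Aa*, *H2-Ab1*, *H2-Eb1*, *Cd74*, *H2-DMa*, *H2-DMb1* and *Ciita*. They were taken as a list by name. All 7 were among the 17399 genes counted in bulk jejunal epithelium and among the 21058 genes counted in single cells, and 5 of the 7 were among the 20882 genes listed for laser-captured stroma, where *Cd74* and *Ciita* were not analysed here.

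MHC class II molecules carry peptides from endocytosed proteins to the cell surface, where CD4+ T cells read them. *H2-Aa* and *H2-Ab1* encode the α and β chains of the I-A molecule, and *H2-Eb1* the β chain of I-E. *Cd74* encodes the invariant chain, which escorts new class II dimers and blocks their groove, and *H2-DMa* and *H2-DMb1* encode the chains of the peptide exchanger that replaces its remnant with a peptide. *Ciita* encodes the transactivator that is required for transcription of the others and that is itself induced by interferon gamma. Dendritic cells, macrophages and B cells are the classical users of the pathway, and enterocytes of the small intestine are known to carry it as well.

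The mice were males. For the ablation experiment the epithelium came from 4-month-old Lgr5(GFP-ires-DTR/+) mice, in which the diphtheria toxin receptor and GFP are expressed from the *Lgr5* locus, 48 h after injection of diphtheria toxin (DT, 4 mice) or of vehicle (control, 4 mice), and the DT and control groups carried the same allele. The receptor is not limited to villus tip telocytes, the stromal cells that the study set out to remove, because *Lgr5* is also the marker of crypt stem cells. The other 2 experiments used untreated C57BL/6 mice of 3 months: single cells sorted into 35 plates from 8 mice (A to H), and stroma captured from crypts (3 mice, 6 sections) and from villus bottom, center and tip (5 mice, 8, 7 and 8 sections). Depth in the epithelium was 748458 to 4210158 UMIs, the unique molecular identifiers that count original mRNA molecules, and the number of replicates was 4 per group. Ages are those of the labels; the study's methods give a younger age for the C57BL/6 mice and a range that begins at the labelled age for the ablation mice.

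Of these genes, 5 lie together on chromosome 17 of the mouse genome (GRCm38, GENCODE annotation): *H2-DMa* at chr17:34119541-34139101 and *H2-DMb1* at chr17:34153072-34160230, *H2-Ab1* at chr17:34257689-34269419 and *H2-Eb1* at chr17:34305867-34316674, all on the plus strand, and *H2-Aa* at chr17:34282744-34287823 on the minus strand. *Ciita* lies on another chromosome, at chr16:10480059-10528418 on the plus strand. Reads of *H2-DMb1* may be shared with its near-identical neighbor *H2-DMb2*, so its values carry that uncertainty.

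Class II promoters are read by a complex assembled on an X box and a Y box, the latter an inverted CCAAT element bound by NF-Y, and *Ciita* docks on that complex. The RefSeq promoter windows (GRCm38.p6, 250 bases before to 50 after a start) held 4 of the 7 genes. The Y box letters TGATTGG lay on the gene strand of 3 of these 4, starting 50 bases before the start in *H2-Aa*, 61 in *H2-Eb1* and 63 in *H2-DMb1*. The core letters of an X box, ACNGATG, lay on the gene strand in *H2-Eb1* and *H2-DMb1*, starting 88 and 91 bases before the start. *H2-Aa* held ACNGATG on the other strand only, 232 bases before its start, and neither of the 2 *H2-DMa* windows held either motif on either strand. Over all 32851 windows, TGATTGG was on the gene strand of 4.01% (7.82% on either strand), ACNGATG of 5.04% (9.85%) and both of 0.195%. Only these exact letters were searched, so a window without a match may still hold an X box or Y box. The stretches from 150 to 31 bases before the start of 2 of the genes are shown because they differ in these matches. Matches on the gene strand are in capitals. *H2-Aa* is chr17:34287854-34287973 on the minus strand and *H2-Eb1* is chr17:34305717-34305836 on the plus strand, both written in the direction of the gene:
H2-Aa: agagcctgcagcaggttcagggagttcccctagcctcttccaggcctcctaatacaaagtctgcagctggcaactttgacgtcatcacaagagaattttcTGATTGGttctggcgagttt
H2-Eb1: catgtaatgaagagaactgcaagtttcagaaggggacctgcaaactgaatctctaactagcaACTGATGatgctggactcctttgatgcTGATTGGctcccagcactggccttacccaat

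The first comparison asked how the epithelium differed 48 h after Lgr5+ cells had been ablated. The mean level of each of the 7 class II genes was lower in DT than in control epithelium, but in each of them the groups overlapped (every DT sample was below every control in 1.49% of all genes tested) and none passed the test. One mouse, DT 3, had almost no class II mRNA, and the size of the mean difference depended on it. Levels are given as CPM, the UMIs of a gene per 1000000 UMIs of the sample, and in such bulk samples fewer cells of a type and less RNA per cell cannot be told apart.

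*H2-Ab1* was at 1376, 653, 1687 and 882 CPM in control mice 1 to 4 and at 663, 639, 31.3 and 529 CPM in DT mice 1 to 4. *H2-Aa* was at 844, 389, 1137 and 596 CPM in control and at 356, 413, 18.1 and 334 CPM in DT. Control 2 sat within the range of DT mice 1, 2 and 4 for both I-A chains, and DT 3 lay far below the other 7 mice. *H2-Eb1*, the I-E chain, was at 392, 151, 576 and 309 CPM in control and at 242, 268, 16.5 and 182 CPM in DT, so control 2 was below 3 of the 4 DT mice. The invariant chain *Cd74* was at 1048, 623, 880 and 602 CPM in control and at 633, 582, 17.5 and 444 CPM in DT. DT 1 exceeded controls 2 and 4 for *Cd74*, and DT 3 was again the lowest.

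The exchanger genes were less abundant in UMIs. *H2-DMa* was at 76, 20.04, 152 and 87.9 CPM in control and at 56.5, 59.0, 5.58 and 78.0 CPM in DT. *H2-DMb1* was at 140, 80.2, 160 and 94.4 CPM in control and at 83.4, 69.6, 1.59 and 69.2 CPM in DT. Both overlapped between the groups, *H2-DMa* in 3 of the 4 DT mice. The transactivator *Ciita* was at 20.04, 9.35, 37.3 and 15.6 CPM in control (29, 7, 157 and 58 UMIs) and at 12.6, 6.29, 0.797 and 7.05 CPM in DT (15, 13, 3 and 16 UMIs). DT 1 was above control 2 for *Ciita*, and the remaining 3 DT mice were below all 4 controls.

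**Figure D1:**
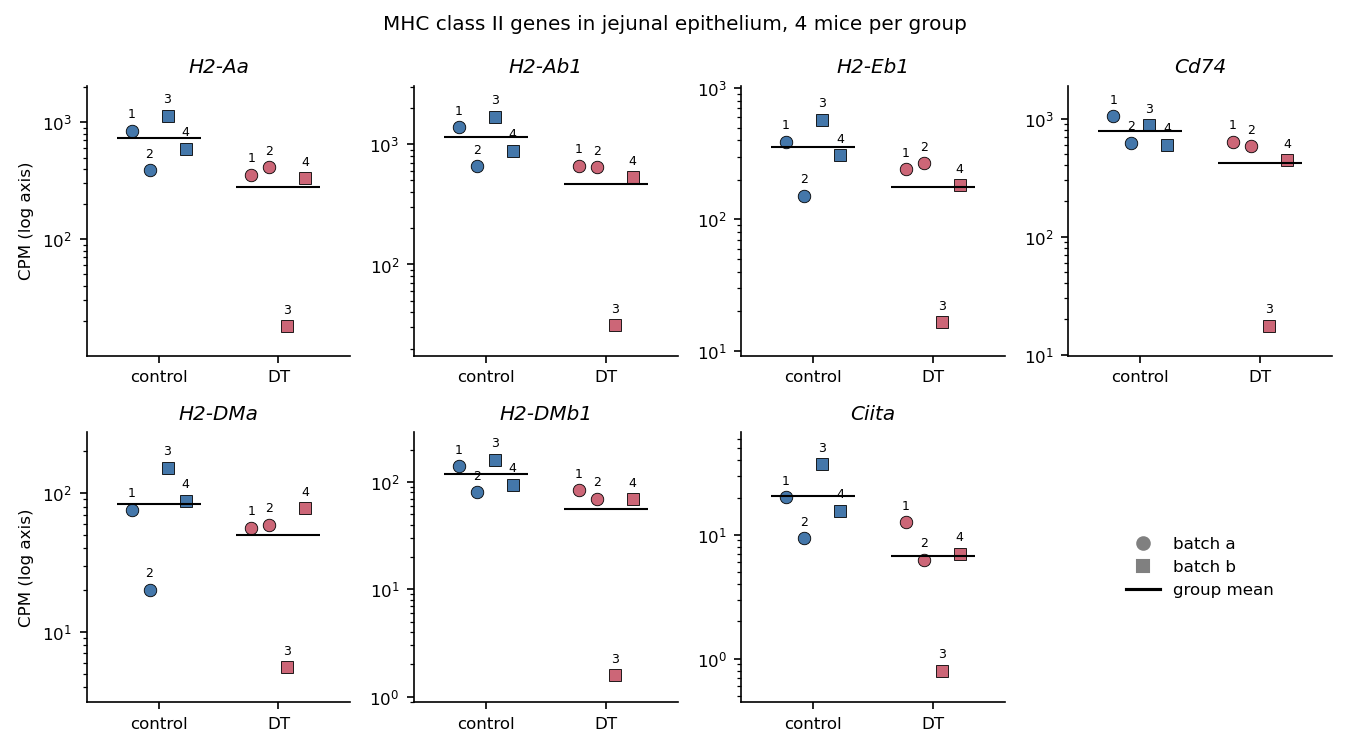
Level of each MHC class II gene in CPM (log axis) in the epithelium of control and DT mice, 1 panel per gene and 1 point per mouse, numbered by replicate, with circles for batch a, squares for batch b and a line at the group mean. DT 3 is the lowest point in all 7 panels, and in each panel at least 1 other DT mouse lies within the range of the controls. For *H2-Eb1* and *H2-DMa* all other DT mice lie within it, and for the remaining genes some lie below every control.

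In the fit over all genes, edgeR's quasi-likelihood test with Benjamini-Hochberg adjustment and batch as a term, 0 of the 7 genes passed, beside 32 of the 8986 genes tested (0.356%), of which 30 were lower in DT (0.334%). At an unadjusted p under 0.05 there were 1551 genes, and *Ciita* was the 1 class II gene among them. Its log2 fold change of DT over control was −2.01 ± 0.61 (SE; n = 4 per group; adjusted p = 0.222). The I-A chains followed with −1.56 ± 0.82 for *H2-Aa* (adjusted p = 0.3595) and −1.48 ± 0.77 for *H2-Ab1* (adjusted p = 0.355). *H2-DMb1*, *H2-Eb1*, *Cd74* and *H2-DMa* had log2 fold changes of −1.30, −1.20, −1.14 and −0.81 with adjusted p from 0.452 to 0.628. The median of all genes tested was 0.00, and 4451 of the 8986 were negative. DESeq2 also called 0 of the 7, with 159 genes called in all and *Ciita* at an adjusted p of 0.0741. Without the filter on low counts the same edgeR test called all 7 lower (adjusted p from 1.12e-08 to 0.0150), among 635 genes called of 15502, with fold changes close to those above and smaller standard errors (0.30 for *Ciita*).

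Without DT 3, the log2 fold changes were −1.36 ± 0.45 for *Ciita* (adjusted p = 0.3003), −1.01 ± 0.34 for *H2-Aa* (adjusted p = 0.302) and −0.95 ± 0.33 for *H2-Ab1* (adjusted p = 0.319). *H2-DMb1*, *Cd74*, *H2-Eb1* and *H2-DMa* were then at −0.75, −0.63, −0.61 and −0.21. All 7 remained negative and none passed, beside 9 genes called of 8905 (0.101%). The mice had been processed in the 2 batches that the study's sample list names, a (replicates 1 and 2 of each group) and b (replicates 3 and 4). Within batch a the log2 fold changes ran from −0.86 for *Ciita* to 0.13 for *H2-DMa*, and within batch b, which holds DT 3, from −3.00 for *Ciita* to −1.64 for *H2-DMa*. None of the 7 passed within either batch, each of which compares 2 mice with 2.

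**Figure D2:**
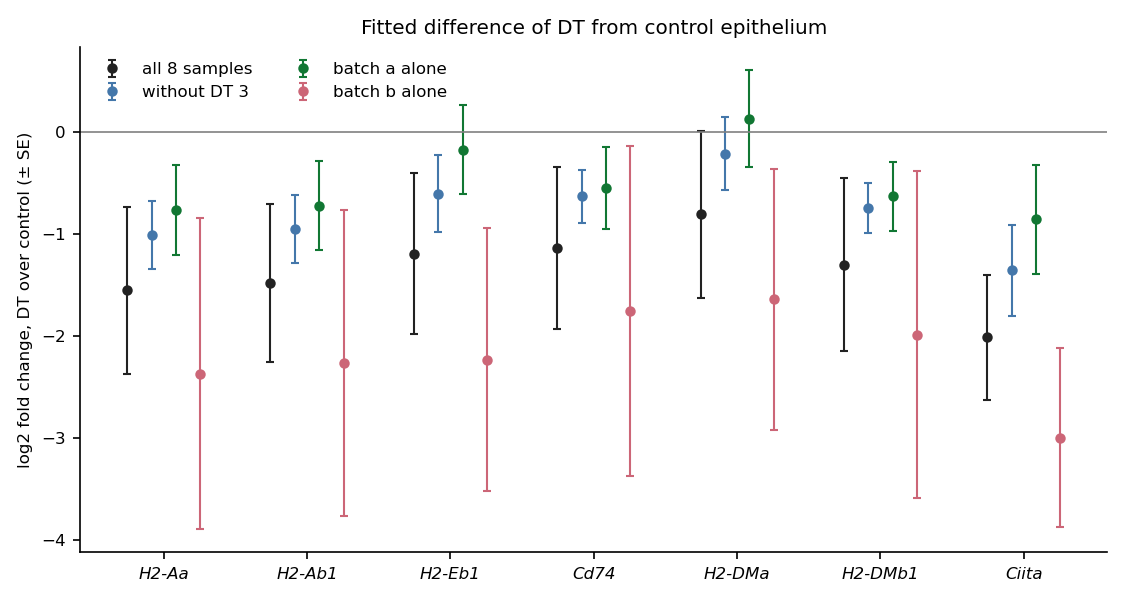
Fitted log2 fold change of DT over control epithelium (y axis, ± SE) for each MHC class II gene, from all 8 samples (black), without DT 3 (blue), from batch a alone (green) and from batch b alone (red). The values without DT 3 lie closer to 0 than those from all samples for each gene, and *H2-DMa* in batch a is the 1 value above 0.

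DT 3 lay below all other mice in each of the 7 class II genes, as it did in 21.4% of all genes tested. It was at least 8-fold below the lowest of the other 7 samples in 7 of the 8986 genes tested (0.0779%), a limit chosen after the values were seen, and 5 of those 7 genes were class II members: *H2-DMb1* (43.4-fold), *Cd74* (25.3-fold), *H2-Aa* (18.5-fold), *H2-Ab1* (16.9-fold) and *H2-Eb1* (9.17-fold). *Ciita* lay just outside the limit at 7.89-fold, which rests on 3 UMIs in DT 3 (95% exact interval 2.17 to 43.2, counting error only), and *H2-DMa* at 3.60-fold. The 2 other genes were *Ubd*, an interferon-inducible ubiquitin-like modifier, at 1.59 CPM against at least 26.6 CPM elsewhere, and *Slc5a12*, a lactate transporter, at 8.76 CPM against at least 90.2 CPM. By the same limit control 2 stood below the others in 1 gene and each of the remaining 6 samples in 0 genes. The depth of DT 3 was 3766530 UMIs, second to control 3, and its 13491 detected genes lay within the range of the others (11789 to 14001).

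Immune cell markers are given beside these values. The 7 class II genes summed to 91.3 CPM in DT 3, against 1643 to 2046 CPM in the other DT mice and 1925 to 4629 CPM in the controls. All 4 pan-immune genes (*Ptprc*, *Cd52*, *Coro1a*, *Laptm5*) were detected, with a sum of 75.1 CPM in DT 3, 33.4 to 181 CPM in the other DT mice and 100.2 to 260 CPM in the controls. The 8 genes of T cells and intraepithelial lymphocytes summed to 839 CPM in DT 3, the highest of the DT mice, and to 123 to 777 CPM in the other DT mice and 207 to 1420 CPM in the controls. Macrophage genes summed to 71.95 CPM in DT 3, also the highest of the DT mice, against 35.3 to 64.7 CPM and 47.7 to 149 CPM. B and plasma cell genes summed to 32.1 CPM in DT 3, the lowest of the DT mice, against 34.3 to 78.4 CPM in the other DT mice and 22.7 to 83.8 CPM in the controls. Dendritic cell genes summed to 1.93 to 8.31 CPM in all 8 mice, with DT 3 at 2.39 CPM. In each of these lists DT 3 lay within the range of the other 7 mice, and the part of immune cells in its class II level was not tested.

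The mRNA of the class II genes varied together over the 8 epithelial samples. After centring within batches, each gene's log2 CPM correlated with the mean of the 7 at a Pearson r of 0.955 (*Ciita*) to 0.998 (*H2-Ab1*), and the lowest r between any 2 of them was 0.879. DT 3 had a large share in this: without it, r with the mean ran from 0.729 (*H2-DMa*) to 0.984 (*H2-Ab1*). The 5 genes outside the list with the most similar profile were *Eepd1* (r = 0.983), *Cadps2* (0.977), *Clec2h* (0.976), *Tcea3* (0.969) and *Clca4b* (0.967). Without DT 3 their r was 0.970, 0.815, 0.796, 0.793 and 0.946. Their log2 fold changes of DT over control were smaller, from −0.83 (*Eepd1*) to −0.36 (*Clec2h*), and none passed the test. These values describe 8 samples that share batches and were ranked over all genes, so no p is given.

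The regulators and partners of the pathway were read from lists of named genes. Of 17 genes of the interferon gamma response, 12 were tested, 10 of them were lower in DT and 0 passed, with a median log2 fold change of −0.77. The lowest were the interferon-inducible GTPases *Iigp1* (−3.46 ± 1.15, adjusted p = 0.226, at 0 to 11.1 CPM) and *Igtp* (−1.54 ± 0.61, adjusted p = 0.261), and the cytokine signaling inhibitor *Socs1* (−1.42 ± 0.48, adjusted p = 0.226). *Irf1*, a transcription factor that carries the signal to *Ciita*, had −0.76 ± 0.24 (adjusted p = 0.222), whereas the receptor chains *Ifngr1* and *Ifngr2* were at 0.02 and 0.12. The list summed to 763 CPM in DT 3, between the 719 and 945 CPM that bounded the DT mice, but its genes lay apart there. DT 3 was the lowest of the 8 mice in 6 of the 12, against 21.4% of all genes: *Irf1* (90 CPM against 108 to 284 in the other mice), *Igtp* (10.09 against 18.7 to 117), *Irgm2*, *Gbp7*, *Socs1* and *Jak2*. It was the highest in 2, the receptor chains *Ifngr1* (214 CPM against 114 to 155) and *Ifngr2* (229 against 128 to 217). Without DT 3, 11 of the 12 were lower and the median was −0.69.

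Of the 7 genes of the complex on the class II promoters, 3 were lower in DT, 0 passed and the median was 0.07. *Rfx5*, the DNA-binding subunit of the RFX complex, had −0.59 ± 0.35 (adjusted p = 0.388), while its partners *Rfxap* and *Rfxank* were at 0.48 and 0.12. Of 12 genes of class II loading and turnover, 8 were tested, 5 were lower and 0 passed, with a median of −0.02. In this list the invariant chain protease *Ctss* (−0.04) and the lysosomal thiol reductase *Ifi30* (−0.02) were near 0, and *H2-DMb2*, the paralog of *H2-DMb1*, had −1.97 ± 0.68 (adjusted p = 0.228). Of 14 genes of class I presentation, 13 were tested, 12 were lower and 0 passed, with a median of −0.36. *H2-T23*, encoding the nonclassical class I molecule Qa-1, had −1.06 ± 0.21 (adjusted p = 0.0580), *H2-K1* −0.84 ± 0.28 (adjusted p = 0.223) and *B2m* −0.36 ± 0.28 (adjusted p = 0.517). The class I list summed to 4490 CPM in DT 3, the lowest of the 8 mice (5957 to 9994 CPM in the others), and DT 3 was the lowest in 7 of the 13 genes. None of the 6 costimulatory genes was abundant enough to be tested. Without DT 3, 9 of the 13 class I genes, 4 of the 8 loading genes and 3 of the 7 promoter genes were lower.

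The single cells showed in which cells the class II mRNA lay. Of 12346 wells assigned to a mouse, 2347 held 400 to 8000 UMIs and at least 250 genes. Cells with a UMI of *Epcam* and none of *Pdgfra*, *Dcn* or *Ptprc* were counted as epithelial (1187), those with *Pdgfra* or *Dcn* alone as mesenchymal (317), and those with *Ptprc* alone as immune (37). A further 28 cells were mixed and 778 had none of these genes. The study's methods describe a sort for PDGFRα+ cells negative for CD45 and EPCAM, but the labels also name other gates, among them EPCAM, CD45 and CD31. The numbers of cells per class are thus those of the gates and not of the tissue. Of the epithelial cells, 394 came from gates for cell doublets, 311 of them from the EPCAM-PDGFRα gate. A further 52 came from the CD45 singlet gate and 42 from the EPCAM singlet gate. Doublets were kept and not called, because several gates were drawn around pairs of cells. The plates share 1 set of 384 well barcodes, and no well name was repeated.

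The classes were checked against other markers. Epithelial cells had 84.0 UMIs per 10000 from the 6 epithelial genes and 0.0166 from the 4 pan-immune genes. In these cells all 5 measured dendritic cell genes were at 0, and 4 of the 8 measured macrophage genes were detected, at 0.123 UMIs per 10000. The immune cells were led by T cell and intraepithelial lymphocyte genes (184 UMIs per 10000, in 86.5% of the cells), with 8.77 from 5 of 7 B and plasma cell genes, 1.03 from 2 of 8 macrophage genes and 0.258 from 1 of 5 dendritic cell genes. Most defining markers of macrophages and dendritic cells were thus at 0 in this class. The 6 epithelial genes were also read in the immune cells, at 16.3 UMIs per 10000 in 16.2% of the cells, led by *Krt8* (8.26) and *Krt20* (4.39), against 1.51 in mesenchymal cells. The part of epithelial RNA in the class II values of the immune cells was not tested.

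Class II mRNA was found in a larger share of epithelial than of mesenchymal cells for each of the 6 genes other than *Ciita*. All 7 genes together gave 21.4 UMIs per 10000 in epithelial, 0.975 in mesenchymal and 17.8 in immune cells. The 778 cells with none of the class genes, which may hold cells of any type, had 18.4 UMIs per 10000 and a class II UMI in 50.3% of the cells. Pooled over cells, the immune level was above the epithelial one for *H2-Aa* (4.90 against 3.50 UMIs per 10000) and *H2-Eb1* (4.645 against 2.06). Most immune cells came from mice E (19) and G (15), whereas mice B and C gave most epithelial cells. Within mice E and G the epithelial level of *H2-Aa* was the higher one. For *H2-Eb1* the epithelial level was higher in mouse G and lower in mouse E. By share of cells, *Cd74* had at least 1 UMI in 766 of 1187 epithelial cells (64.5%, 95% exact interval 61.7 to 67.3%), in 9 of 317 mesenchymal cells (2.84%, 1.31 to 5.32%) and in 4 of 37 immune cells (10.8%, 3.03 to 25.4%). *H2-Ab1* was found in 38.75%, 0.946% and 10.8% of these cells, *H2-Aa* in 33.1%, 0.3155% and 16.2%, and *H2-Eb1* in 26.1%, 1.89% and 13.5%. The exchanger genes were found in fewer cells, *H2-DMb1* in 9.77%, 0.631% and 5.41% and *H2-DMa* in 8.51%, 0% and 2.70%. The 0 of 317 mesenchymal cells for *H2-DMa* allows up to 0.946% of cells with a UMI by the limit of 3 counts (1.16% by the exact interval), which does not limit the share of cells expressing the gene. *Ciita* was at the limit of detection, with 3 UMIs in 2 epithelial cells (0.1685%) and 0 in mesenchymal and immune cells, which allows up to 0.946% and 8.11% of cells with a UMI by the limit of 3 counts. Intervals and limits cover counting error only.

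The epithelial cells were deeper, with a median of 2019 UMIs against 1030 in mesenchymal and 964 in immune cells. Thinned to 400 UMIs per cell, *Cd74* was expected in 31.8%, 1.5% and 8.15% of the cells, *H2-Ab1* in 12.9%, 0.458% and 7.36%, and *H2-Aa* in 12.55%, 0.315% and 11.6%. At equal depth the epithelial cells thus remained far above the mesenchymal cells. Pooled over mice, *H2-Aa* was in similar shares of epithelial and immune cells, but the classes drew on the mice unequally. The part of RNA from other cells in these shares was not tested. *H2-Eb1* was expected in 7.37% of epithelial and 8.19% of immune cells and *H2-DMb1* in 2.18% and 2.19%. The cells with none of the class genes, at a median of 864 UMIs, were at 24.8% for *Cd74*, 11.04% for *H2-Ab1* and 12.55% for *H2-Aa* after thinning. With 37 immune cells from 4 mice, the immune intervals are wide.

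**Figure D3:**
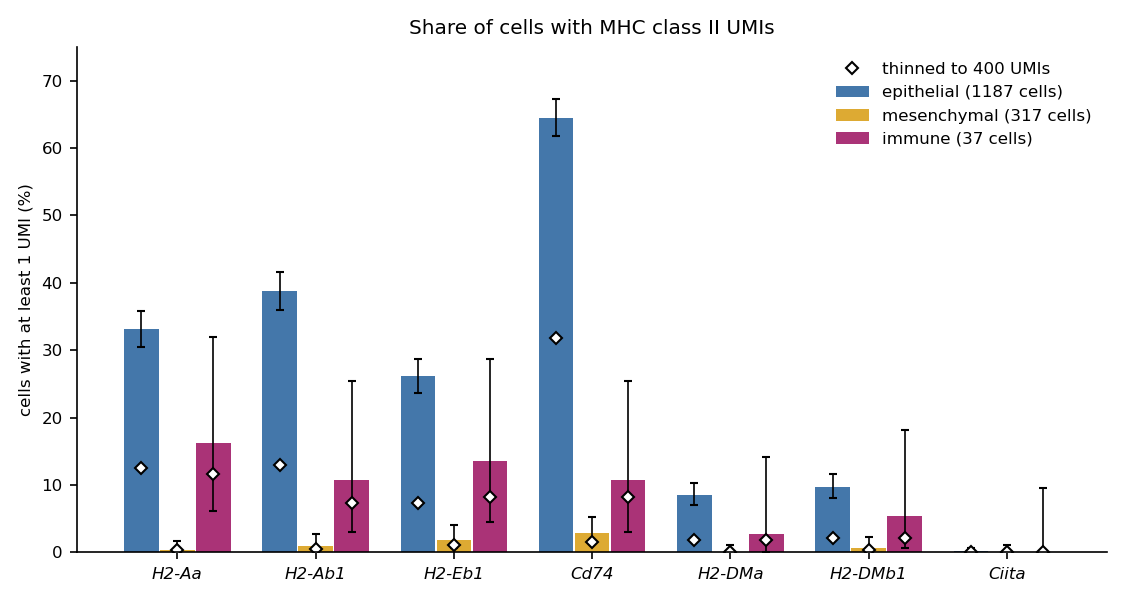
Share of cells with at least 1 UMI of each MHC class II gene (y axis, %) in epithelial, mesenchymal and immune cells, with bars for the share, error bars for the 95% exact interval and diamonds for the share expected after thinning to 400 UMIs per cell. Cells are pooled over mice. The epithelial bar is the highest for each of the 7 genes, and after thinning the epithelial and immune values of *H2-Aa* (12.55% and 11.6%) and *H2-DMb1* lie side by side.

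Within the epithelium, class II mRNA was uneven. Of the 1187 epithelial cells, 293 (24.7%) had no UMI of any of the 7 genes, 296 had a UMI of 1 gene, 228 of 2, 169 of 3, 129 of 4, 59 of 5 and 13 of 6, and none of all 7. The cells held 6452 class II UMIs with a median of 3 and a maximum of 71 per cell, and the 119 cells with the most held 44.3% of them. Of the 297 shallowest epithelial cells (410 to 1234 UMIs) 67.3% had a class II UMI and of the 297 deepest (3507 to 7960 UMIs) 85.5%, so the share without one includes cells too shallow to show it. The level per 10000 UMIs went the other way, from 32.3 in the shallowest to 19.6 in the deepest of these cells. The wells below 400 UMIs, which were not used, held *Cd74* at 5.03 and *H2-Aa* at 1.90 UMIs per 10000. Both values were above those of the mesenchymal cells (0.411 and 0.0257).

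Between mice the epithelial levels varied several-fold. The 7 genes summed to 15.7, 21.0, 24.3, 37.7, 47.95, 26.2, 20.6 and 11.1 UMIs per 10000 in mice A to H. *Cd74* was at 9.12, 11.6, 13.4, 16.9, 17.3, 5.70, 10.9 and 5.47 UMIs per 10000 in the same order, 11.3 ± 4.5 (SD, n = 8 mice). *H2-Aa* was at 1.55, 3.25, 3.78, 7.69, 13.6, 5.70, 2.78 and 1.69, 5.00 ± 4.04. Mice D and E were the highest for both genes, and mouse H was among the 2 lowest for both. *H2-Ab1* was at 1.94 to 10.03 (4.56 ± 2.71), *H2-Eb1* at 1.15 to 5.08 (2.59 ± 1.46) and *H2-DMa* at 0 to 1.11 (0.544 ± 0.362) UMIs per 10000. *H2-DMb1* was at 0.380 to 1.10 in 7 mice and at 7.97 in mouse F, which had 8 epithelial cells. The gates sorted and the depth of the cells differed between mice, and their part in these differences was not tested. The epithelial cells had a median of 954 UMIs in mouse E and 2422 UMIs in mouse H. Within mouse D, cells from the EPCAM-PDGFRα doublet gate summed to 51.7 and those from the EPCAM singlet gate to 33.2 UMIs per 10000. Their median depths were 741.5 and 2220 UMIs.

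In mesenchymal cells of mice A, B and C, which held 310 of the 317 cells, *Cd74* was at 0, 0.548 and 0.151 and *H2-Aa* at 0, 0.0913 and 0 UMIs per 10000. Every one of these values was below the lowest epithelial value of the same gene. In mouse G, with 6 mesenchymal cells, *Cd74* was at 8.91 and *H2-Eb1* at 13.4 UMIs per 10000 and *H2-Aa* and *H2-Ab1* were at 0. Immune cells could be read in 2 mice: in mouse E (19 cells) *Cd74* was at 10.2, *H2-Eb1* at 10.2 and *H2-Aa* at 8.52 UMIs per 10000, and in mouse G (15 cells) *H2-Aa* was at 2.41, *H2-Ab1* at 1.81 and the other 5 genes at 0. In order of mean level the epithelial class stood above the immune class for *Cd74* (11.3 against 5.11) and below it for *H2-Eb1* (2.59 against 5.11), and the values of the mice overlapped between the classes for both genes.

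**Figure D4:**
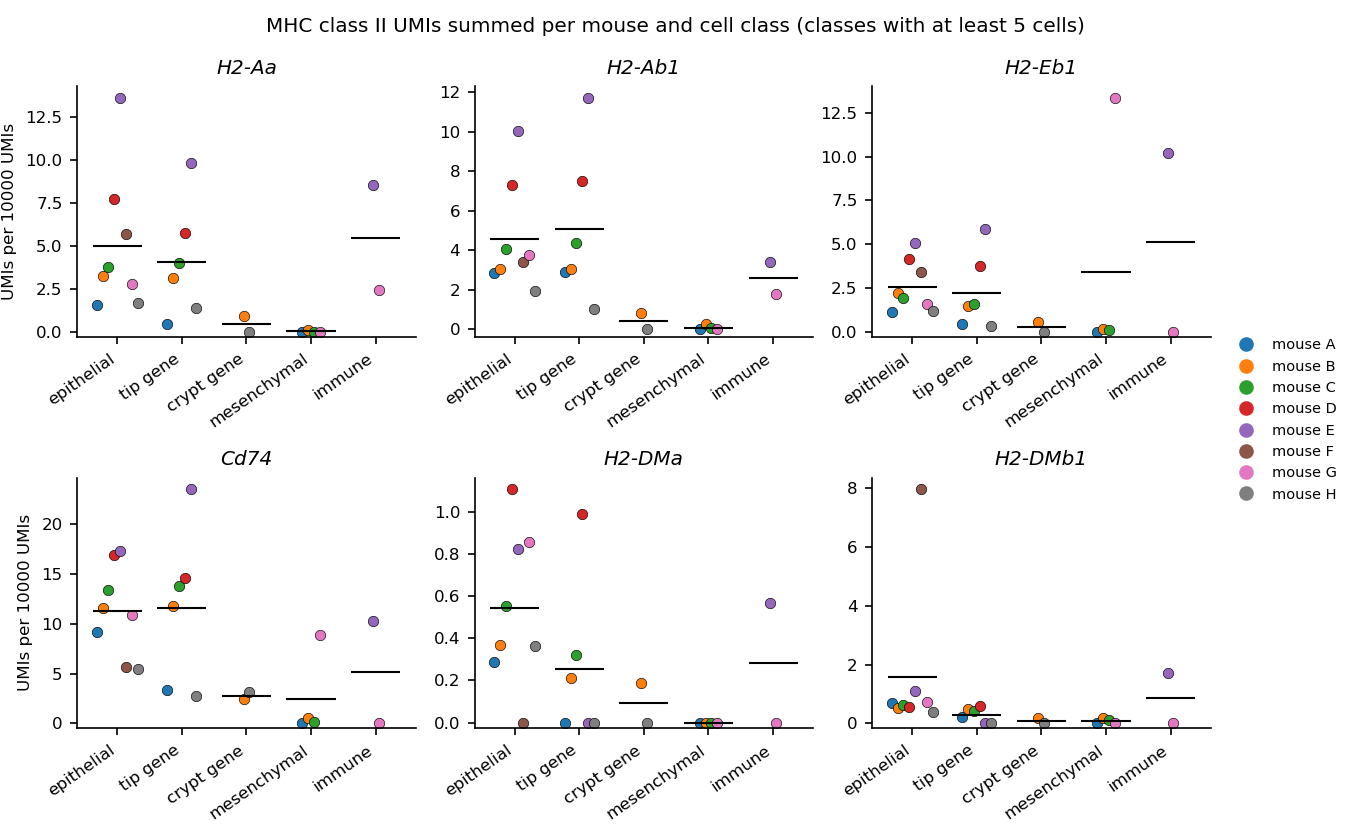
Level of 6 MHC class II genes in UMIs per 10000 (y axis) per mouse (color) in epithelial cells, epithelial cells with a villus tip gene, epithelial cells with a crypt gene, mesenchymal and immune cells, with a line at the mean and without classes of fewer than 5 cells. Epithelial levels of *H2-Aa* run from 1.55 to 13.6 while mesenchymal levels stay at or below 0.0913, and mouse G is the 1 mesenchymal point far from 0 for *H2-Eb1* and *Cd74*.

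For the test, UMIs were summed over the cells of a class in each mouse and compared by edgeR's quasi-likelihood test with Benjamini-Hochberg adjustment (8 mice with epithelial and 4 with mesenchymal cells). Of 2746 genes tested, 59.0% differed and 24.1% were higher in epithelial cells. *H2-Aa* was higher by 6.50 ± 1.13 on the log2 scale (SE; adjusted p = 4.05e-06), *H2-Ab1* by 4.25 ± 0.83 (adjusted p = 2.47e-05) and *Cd74* by 3.67 ± 0.76 (adjusted p = 6.10e-05). *H2-Eb1* (1.65 ± 0.78, adjusted p = 0.0639) and *H2-DMb1* (1.64 ± 0.76, adjusted p = 0.0605) did not pass, while *H2-DMa* and *Ciita* were too rare to be tested. The fitted value of *H2-Aa* rests on 1 UMI in mesenchymal cells, against 1057 in epithelial cells, a ratio of levels of 136 (95% exact interval 24.4 to 5393, counting error only). The median of all genes was −0.27. Without mouse A, E, F or G, *H2-Eb1* and *H2-DMb1* passed as well. Over all alternatives *H2-Aa* kept an adjusted p of at most 6.57e-05, *H2-Ab1* of at most 0.000523 and *Cd74* of at most 0.00103. These genes had entered the test through the epithelial class, in which they are high, so the number called is a description.

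Against immune cells (8 mice with epithelial and 2 with immune cells), 36.6% of 3502 genes differed, 29.3% were higher in epithelial cells, and the median of all genes was 1.52. *Cd74* was higher by 2.05 ± 0.81 (adjusted p = 0.0451, from 0.000333 to 0.649 over the alternatives), and *H2-Ab1* by 1.73 ± 0.74 did not pass (adjusted p = 0.0586). *H2-DMa*, *H2-DMb1* and *H2-Aa* were at 1.96, 0.70 and 0.70 and *H2-Eb1* at −0.18, with adjusted p from 0.243 to 0.866. In 1 of the 2 mice with immune cells, *Cd74*, *H2-Eb1*, *H2-DMa* and *H2-DMb1* were at 0 in those cells. These genes could enter the test only with the epithelial class, so the number called is a description. Relative to the median gene only *Cd74*, *H2-DMa* and *H2-Ab1* of the 6 tested lay higher. Without TMM scaling the median gene moved to 0.41, *Cd74* no longer passed and *H2-Aa* and *H2-DMb1* lay below 0. Without mouse C or G 0 of the genes passed, and without mouse B, E or F 2 did. DESeq2 and the fit with the mouse as a block called 0 of them.

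The epithelial cells were then read by position on the villus. Cells with a UMI of *Ada*, *Nt5e* or *Slc28a2*, which mark villus tip enterocytes, numbered 325, and cells with a UMI of *Olfm4*, *Mki67* or *Top2a*, which mark crypt cells, numbered 36. *Cd74* was found in 64.3% of the first (58.8 to 69.5%) at a median of 1811 UMIs per cell, and in 58.3% of the second (40.8 to 74.5%) at a median of 4096 UMIs. Thinned to 400 UMIs, these shares were 31.6% and 16.9% for *Cd74*, 13.0% and 3.37% for *H2-Ab1*, 10.1% and 5.55% for *H2-Aa*, and 5.81% and 6.15% for *H2-Eb1*. The thinned share was higher in the tip-gene than in the crypt-gene cells for *Cd74* and the I-A chains. For *H2-Eb1*, found in 10 crypt-gene cells, the thinned shares were close. The *H2-Eb1* level pooled over cells was higher in the tip-gene cells (1.74 against 1.20 UMIs per 10000). The 822 epithelial cells with neither set of genes were at 32.7%, 13.3%, 13.9% and 8.06% for the same genes in this order, each above the tip-gene cells. The level was therefore not particular to tip-gene cells. For *Cd74* and the I-A chains the lowest thinned shares were those of the 36 crypt-gene cells. For *H2-Eb1* the tip-gene and crypt-gene cells were both below the cells with neither set.

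At least 5 crypt-gene cells were found in 2 mice. In mouse B, *Cd74* was at 11.7 in 170 tip-gene cells and 2.42 in 20 crypt-gene cells, *H2-Ab1* at 3.06 and 0.838, *H2-Aa* at 3.12 and 0.931, and *H2-Eb1* at 1.48 and 0.559 UMIs per 10000. In mouse H, *Cd74* was at 2.77 in 10 tip-gene cells and at 3.16 in 7 crypt-gene cells, *H2-Aa* at 1.38 (4 UMIs) and 0, and *H2-Ab1* at 1.04 (3 UMIs) and 0. A count of 0 in the crypt-gene cells of mouse H allows up to 1.58 UMIs per 10000, so no difference of the I-A chains was detectable in that mouse, and the higher levels in tip-gene cells were those of mouse B. The tip-gene cells of mice A, C, D and E had *Cd74* at 3.35, 13.8, 14.6 and 23.5 UMIs per 10000.

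In the test over mice (6 with tip-gene and 2 with crypt-gene cells), 50% of 1731 genes differed and 28.3% were higher in tip-gene cells, with a median of 0.78. All 4 class II genes tested were higher: *H2-Ab1* by 3.26 ± 0.82 (SE; adjusted p = 0.000414), *H2-Aa* by 2.83 ± 0.82 (adjusted p = 0.00208), *H2-Eb1* by 2.60 ± 0.90 (adjusted p = 0.0105) and *Cd74* by 2.38 ± 0.76 (adjusted p = 0.00568). In 1 of the 2 mice with crypt-gene cells, *H2-Aa*, *H2-Ab1* and *H2-Eb1* were at 0 in those cells. These genes could enter the test only with the tip-gene cells, in which they are high, so the number called is a description. The calls rest on few crypt-gene cells: without mouse B 2 genes were called and without mouse H also 2, DESeq2 called 1 of 4, and over the alternatives the adjusted p of *Cd74* ran up to 0.139 and that of *H2-Eb1* up to 0.218. With the mouse as a block *H2-Eb1* did not pass (adjusted p = 0.0785). *H2-Ab1* kept an adjusted p of at most 0.0264. Of the 17 genes of the interferon gamma list only 3 passed the expression filter. All 3 were higher in tip-gene cells (*Ifngr2* by 2.43, *Jak1* by 3.30 and *Jak2* by 3.25). Of the 14 genes of class I presentation 8 were tested and 6 were higher, among them *H2-K1* (3.46 ± 0.84, adjusted p = 0.000251) and *B2m* (2.38 ± 0.86, adjusted p = 0.0139). The remaining genes of both lists were too rare to be tested, so these counts do not describe the whole lists.

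Laser-captured stroma gave the levels of 5 class II genes along the crypt-villus axis. Values are TPM rescaled to ppm, parts per 1000000, after 358 genes abundant in enterocytes had been removed, and they count per transcript length, so genes can be compared. In the villus bottom the order was *H2-Ab1* (1307 ± 542 ppm, SD, n = 5 mice), *H2-Aa* (705 ± 450), *H2-Eb1* (371 ± 280), *H2-DMa* (54.4 ± 55.0) and *H2-DMb1* (51.5 ± 45.5). The ranges of neighbors in this order overlapped over mice, although *H2-Ab1* was above *H2-Aa* in each of the 5 mice. At the tip the means were 1246 ± 1607, 881 ± 583, 312 ± 425, 40.5 ± 61.7 and 117 ± 192 ppm. The removed genes took 4.86 to 40.3% of the TPM of a sample, and 4 of the 7 class II genes were themselves among the genes making up 50% of control epithelial UMIs and were kept, so epithelial RNA in a section would count toward them. Its part in these levels was not tested.

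The levels varied widely between mice within a zone. *H2-Aa* was at 307, 642 and 1053 ppm in the crypts of mice 1 to 3. In mice 1 to 5 it was at 337, 1164, 1220, 318 and 485 ppm in the villus bottom, at 433, 937, 412, 5.69 and 543 ppm in the center, and at 1353, 1464, 842, 0 and 745 ppm at the tip. Mouse 4 was the lowest at all 3 villus zones, and at the tip *H2-Aa* was listed at 0 there. *H2-Ab1* was at 853, 1365, 2145, 798 and 1375 ppm in the villus bottom and at 3987, 303, 1302, 0 and 636 ppm at the tip, and *H2-Eb1* was at 193.5, 440, 803, 68.5 and 352 ppm in the bottom and at 1060, 120, 205, 0 and 176 ppm at the tip. For both genes mouse 1 was the highest at the tip and mouse 4 was listed at 0, and the zones overlapped. These values average the sections of a mouse and zone, which could differ widely. The tip sections of mouse 1 were at 7326 and 648 ppm for *H2-Ab1* and at 1979 and 141 ppm for *H2-Eb1*. For *H2-Aa* the tip sections of mouse 2 were at 326 and 2602 ppm and those of mouse 3 at 872 and 812 ppm. *H2-DMa* ran from 0 to 138 ppm in the bottom and from 0 to 148 ppm at the tip, and *H2-DMb1* from 12.7 to 124 ppm and from 3.21 to 458 ppm. *Gapdh* and *B2m* were listed at 0 in none of the 18 combinations of mouse and zone. The number of genes above 0 per section ran from 5481 to 17306. Whether genes listed at 0 in mouse 4 had been missed was not tested.

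**Figure D5:**
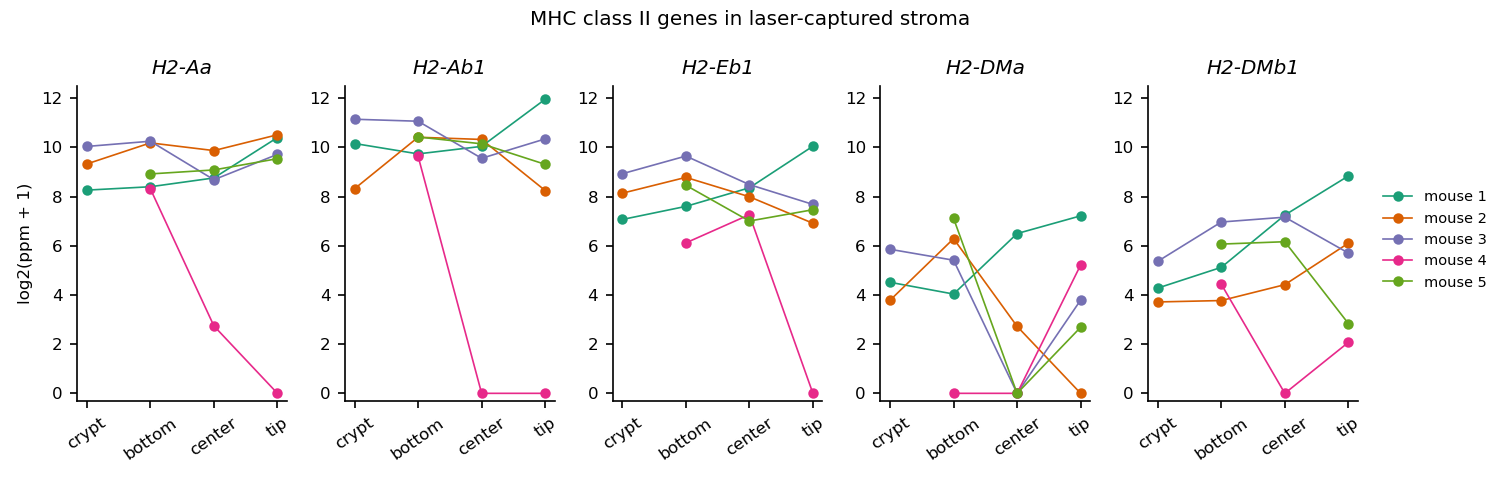
Level of 5 MHC class II genes as log2(ppm + 1) (y axis) in laser-captured stroma of crypt, villus bottom, center and tip (x axis), 1 line per mouse. The lines cross, mouse 4 is at 0 at the tip for *H2-Aa*, *H2-Ab1* and *H2-Eb1*, and mouse 1 is the highest there for *H2-Ab1*, *H2-Eb1* and *H2-DMb1*.

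No class II gene differed between zones beyond the spread over mice, and neither did any other gene in the fit with limma and Benjamini-Hochberg adjustment (0% of 13485 genes called in each of the 3 comparisons, with 625 genes at an unadjusted p under 0.05 for tip against bottom, 203 for bottom against crypt and 440 for tip against crypt). On the log2(ppm + 1) scale, *H2-Ab1* differed by −2.28 ± 1.78 (SE) between tip and villus bottom, *H2-Eb1* by −1.70 ± 1.19, *H2-Aa* by −1.18 ± 1.51, *H2-DMa* by −0.79 ± 1.40 and *H2-DMb1* by −0.16 ± 1.25, with adjusted p from 0.993 to 0.997 and a median of all genes of −0.06. Without mouse 4 the difference of *H2-Aa* was 0.60. Because the zones came from the same mice, two-sided exact permutation tests flipped the sign of the differences within mice and gave p from 0.3125 (*H2-Eb1*) to 0.9375 (*H2-DMb1*) for tip against bottom, where the smallest value that 5 mice allow is 0.0625. *H2-Ab1* and *H2-Eb1* were higher at the tip in 1 of the 5 mice each, and *H2-Aa* in 3. For the comparisons with crypts, with 3 mice, the smallest possible value is 0.25. Over the 15 such tests the adjusted p was 0.9375 or 1.

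Immune cells of the stroma may carry these genes as well, so the sums of their markers are given for villus bottom and tip. No gene of these lists passed the test between the zones. Pan-immune genes summed to 876 ± 595 ppm in the villus bottom and 222.5 ± 193 ppm at the tip, macrophage genes to 789 ± 428 and 159 ± 155 ppm, and B and plasma cell genes to 19660 ± 7404 and 2342 ± 3115 ppm (SD, n = 5 mice). Dendritic cell genes were at 80.2 ± 44.4 and 71.7 ± 40.9 ppm. The part of these cells in the class II levels was not tested.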

How the data were processed

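The data are UMI counts of 8 epithelial samples (4 DT, 4 control) and of 12698 single-cell wells, and TPM values of 29 sections of laser-captured stroma. For the counts, the authors aligned reads to GRCm38 with zUMIs and deposited UMIs per gene without normalization. For the stroma, the authors made TPM with kallisto and sleuth on coding transcripts and deposited them per gene. The submitters' processing notes name bcl2fastq 2.15.0.4 and GRCm38. The authors' own comparison tables were not used.

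The members and gene lists were chosen with earlier results of these data known. Genes named in the text are the 7 members, the fixed lists around them and the 5 genes most alike in profile.

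Epithelial counts were tested with edgeR 4.0.16 (TMM, robust quasi-likelihood, batch and group) on genes above 1e-05 of the UMIs in at least 2 samples. Batches are those of the study's sample list. Samples of the same replicate number deviated together (r of 0.414 to 0.657), as the numbers follow the batches, while within a batch r was −0.16 and −0.06. Cells with UMIs from 400 to 8000 and no fewer than 250 genes were used, summed per mouse and class (at least 5 cells) and tested with edgeR on genes passing its expression filter. One plate of 352 wells matched no sample and was not used. TPM were rescaled without 358 enterocyte genes (members were kept), using genes below 1% of a sample, averaged per mouse and zone, and compared as log2(ppm + 1) with limma 3.58.1 for genes above 5 ppm in a zone. Zones of one mouse come from the same animal (r of tip and bottom deviations 0.0958 to 0.439), so exact tests of single genes were paired within mice, which was decided after the data were seen. Adjusted p under 0.05 was called. Depth of the stroma sections is unknown from TPM.

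Alternatives were DESeq2 1.42.0, other scalings, filters, pseudocounts, cell cutoffs and classes, a block for replicate or mouse and each replicate left out; the counts of listed genes without DT 3 were added after the data were seen. The fits were also run on simulated data without batch effects or an outlying mouse, so those runs do not show the power for the class II genes here.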

Additional observations from a re-analysis of the deposited data

Results flagged for a closer look

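A gap test within each group of 4 to 10 mice (Dixon's 95% limit, 50 groups tested, of which chance marks about 1 in 20) picked out 13 values of class II genes. Of these, 6 were the levels in the epithelium of DT 3, each the lowest of the 4 DT mice: 18.05 CPM for *H2-Aa*, 31.33 for *H2-Ab1*, 16.46 for *H2-Eb1*, 17.52 for *Cd74*, 5.575 for *H2-DMa* and 1.593 for *H2-DMb1*. They come from a single library and were not independent of each other. In laser-captured stroma, mouse 4 was the lowest of 5 mice for *H2-Aa* at the villus center (5.688 ppm) and at the tip (listed at 0), and for *H2-Ab1* at the center (listed at 0); this mouse gave 1 section per zone.

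Of the single-cell levels, *H2-Aa* in mesenchymal cells was highest in mouse B (0.09132 UMIs per 10000, from 1 UMI), with the other 3 mice at 0. In epithelial cells of mouse F, which had 8 cells, *H2-DMb1* was the highest of 8 mice (7.973 UMIs per 10000) and *H2-DMa* was the lowest (0). *Ciita* in epithelial cells was highest in mouse C (0.04344 UMIs per 10000, from 3 UMIs), with the other 7 mice at 0.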

How the results depend on the processing

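For DT against control, 104 of 112 values of single genes kept their direction and their side of the threshold; without the filter on low counts 7 of the 7 genes passed, and in batch a alone *H2-DMa* was at 0.1296. With the replicate number as a block, 0 of the 7 genes and 3 genes in all passed. For tip against villus bottom, 0 genes passed in any fit, also with the mouse as a block; *H2-DMb1* was at 0.01923 with a pseudocount of 5, and with 1 mouse left out *H2-Aa* ran from −1.976 to 0.604, *H2-DMa* from −2.29 to 0.5878 and *H2-DMb1* from −1.132 to 0.6056. For epithelial against mesenchymal cells, where 3 passed, 6 did without the filter, with at least 10 cells per mouse and with cells from 200 UMIs, 5 with classes by marker lists, 3 with the mouse as a block, and 4 to 6 with 1 mouse left out (6 without A, 5 without E, F or G). For epithelial against immune cells, where 1 passed, 0 did with DESeq2, without TMM, without doublet gates and with the mouse as a block, 2 without the filter, with at least 10 cells, with cells from 200 UMIs and with marker lists, and 0 to 2 with 1 mouse left out (0 without C or G, 2 without B, E or F). There *H2-Aa* was at −0.3242 without TMM and −0.3654 without mouse G, and *H2-DMb1* at −0.3652 and −0.7925; *H2-Eb1* was at 0.4893 without the filter, 0.1299 with at least 10 cells, 0.4096 with marker lists, 0.8542 with the mouse as a block, and −1.592 to 9.28 with 1 mouse left out (0.1798 without A, 0.08537 without B, 0.1299 without F, 9.28 without E, the 1 mouse with *H2-Eb1* UMIs in immune cells). For tip-gene against crypt-gene cells, where 4 passed, 1 did with DESeq2, without the filter and with cells from 200 UMIs, 3 with the mouse as a block, and 2 to 4 with 1 mouse left out (2 without B, 2 without H). Leaving out B or H leaves 1 mouse with crypt-gene cells, assumed to vary like the others. Marker-list classes were not run there. The causes were not tested. *Ciita*, at 3 to 157 UMIs per epithelial library and 3 UMIs in all epithelial cells, is limited by depth.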
